A study of Mus musculus with 6 samples.

Results

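The chemokine receptor genes Cx3cr1, Ccr1, Ccr2, Cxcr4 and Ccrl2 were examined in immortalised mouse bone marrow-derived macrophages. They are 5 of 25 conventional and atypical chemokine receptor genes, and of 54532 genes in the deposited tables. The genes were chosen by name with their levels in these libraries known, so their values are given as a description, without a test. Poly(A) RNA was sequenced in 6 libraries, 3 from cells labelled 4-1BBL KO and 3 from cells labelled WT. 4-1BBL is a ligand of the TNF family encoded by Tnfsf9, and the KO cells came from mice deficient in it. Both groups had been turned into growing lines by retroviral v-raf and v-myc, and both were kept with 10 ng/ml IL-4, the cytokine of alternative macrophage activation, for 24 hours. The labels do not say how many mice, clones or cultures stand behind the 3 libraries of a group, so the p-values below measure only the spread between libraries, which may be technical. Untreated cells were not analysed here, so no value below is a response to IL-4.

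Chemokine receptors are seven-pass membrane proteins that couple mainly to inhibitory G proteins and steer leukocytes along gradients of small secreted chemokines. Atypical receptors bind such ligands without this G protein signal and shape their local supply. In the mouse, Ccr2 brings monocytes from the marrow to inflamed tissue, Cx3cr1 marks patrolling monocytes and many resident macrophages, and Cxcr4 holds cells in the marrow.

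The depth recovered from the deposited FPKM (fragments scaled to exon length and depth) was 26.4, 19.7 and 19.1 M (mega) assigned fragments in KO-labelled replicates 1 to 3, and 21.4, 20.7 and 22.3 M in WT replicates 1 to 3. Tnfsf9 averaged 10.9 ± 0.414 FPKM in KO-labelled libraries and 12.3 ± 2.10 FPKM in WT libraries (SD, n = 3 each), with p = 0.4 in an exact two-sided permutation test that cannot go below 0.1, so its transcript level did not separate the labels. The Y-linked gene Ddx3y averaged 10.8 ± 1.13 FPKM in KO-labelled libraries and 0.00309 FPKM, 1 fragment in all, in WT libraries. This Y-linked difference, whether from the sex of the donor mice or not, cannot be told apart from the genotype. The immortalised line and the genotype cannot be told apart either, since the groups share no line. All 10 macrophage markers reached a group mean of 1 FPKM, with sums of 1471 to 1505 FPKM in KO-labelled libraries and 2294 to 2345 FPKM in WT libraries. The 8 T cell markers summed to 22.0 to 26.1 FPKM in KO-labelled libraries and 1.91 to 2.30 FPKM in WT libraries, with Cd3e, Cd3g and Cd8a listed at 0 in all 6 libraries. That sum was mostly Cd28, at 21.5 FPKM in KO-labelled libraries and 0.129 FPKM in WT libraries, while Lck went the other way, at 0.771 FPKM in KO-labelled libraries and 1.79 FPKM in WT libraries. The 6 B cell markers summed to 2.48 to 3.27 FPKM in KO-labelled libraries and 48.3 to 53.2 FPKM in WT libraries, with Ms4a1 listed at 0 in all 6 libraries. That sum was mostly Ighm, at 1.41 FPKM in KO-labelled libraries and 49.6 FPKM in WT libraries, while Cd79b was higher in KO-labelled libraries, at 1.54 FPKM against 0.230 FPKM in WT libraries. Their part in the results was not tested.

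Cx3cr1, the receptor of the membrane-bound chemokine fractalkine, showed the widest separation of the 5 genes. It was listed at 0 FPKM in KO-labelled replicates 1, 2 and 3, and at 26.4, 24.6 and 27.8 FPKM in WT replicates 1, 2 and 3. The recovered fragments were 0, 0 and 0 in the KO-labelled libraries and 2544, 2295 and 2790 in the WT libraries. The groups did not overlap, and no KO-labelled library held a single fragment of the gene. At these depths 3 fragments, the limit a count of 0 allows, correspond to 0.0252, 0.0338 and 0.0348 FPKM in the KO-labelled libraries. Against that floor per library, Cx3cr1 was at least 840-fold lower in KO-labelled libraries than in WT libraries, whose mean was 26.3 ± 1.63 FPKM (SD, n = 3). The libraries carry no molecular identifiers as far as the labels say, so these floors and the intervals below cover counting error alone. In bulk RNA, fewer cells with a transcript and less transcript per cell cannot be told apart.

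Cx3cr1 (ENSMUSG00000052336) spans chr9:119901616-120069879 on the minus strand of mm10, with 4505 exonic bases, of which 1.73% are overlapped by the antisense gene Gm33858. Its WT mean lay above 88.7% of the genes with any signal in the WT libraries. Of 4871 genes with a WT mean of at least 10 FPKM, 13 were listed at 0 in all 3 KO-labelled libraries. Cx3cr1 is itself 1 of the 13 and was chosen with its levels known, so the count only describes the data. In the opposite direction, 20 genes with a KO-labelled mean of at least 10 FPKM were listed at 0 in all 3 WT libraries.

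Ccr1, a receptor of inflammatory chemokines such as Ccl3 and Ccl5, was also lower in KO-labelled libraries. Its levels were 0.0669, 0.0359 and 0.0553 FPKM in KO-labelled replicates 1 to 3, and 1.29, 0.953 and 1.38 FPKM in WT replicates 1 to 3. The KO-labelled values rest on 5, 2 and 3 fragments and the WT values on 78, 56 and 87 fragments. Every WT library was above every KO-labelled one, and the KO-labelled values lay around the floor of 3 fragments. The mean was 0.0527 ± 0.0157 FPKM in KO-labelled libraries and 1.21 ± 0.225 FPKM in WT libraries (SD, n = 3 each), which is 22.9-fold lower in KO-labelled libraries. From the summed fragments, scaled to depth, the gene was 22.4-fold lower, with an exact 95% counting interval of 11.9 to 47.3.

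Ccr2, the receptor of the monocyte attractants Ccl2 and Ccl7, was near the detection limit in both groups. It was listed at 0, 0.0150 and 0.0155 FPKM in KO-labelled replicates 1 to 3, and at 0.0900, 0.121 and 0.0930 FPKM in WT replicates 1 to 3. These values stand for 0, 2 and 2 fragments in the KO-labelled libraries and for 13, 17 and 14 fragments in the WT libraries. The groups did not overlap, yet even the WT libraries held Ccr2 well under the 1 FPKM limit used for testing. The summed fragments were 4 in KO-labelled libraries and 44 in WT libraries, 11.1-fold lower in KO-labelled libraries with a 95% counting interval of 4.06 to 42.7.

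Cxcr4, the receptor of Cxcl12, differed in the other direction. Its levels were 3.46, 4.21 and 3.82 FPKM in KO-labelled replicates 1 to 3, and 1.22, 2.13 and 1.37 FPKM in WT replicates 1 to 3. WT replicate 2 was the highest of its group and still lay below every KO-labelled library. The mean was 3.83 ± 0.378 FPKM in KO-labelled libraries and 1.57 ± 0.492 FPKM in WT libraries (SD, n = 3 each), 2.44-fold higher in KO-labelled libraries. The fragments summed to 447 in KO-labelled libraries and 182 in WT libraries.

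Ccrl2, an atypical receptor that presents the chemoattractant chemerin to other cells, was the second gene with the higher level in KO-labelled libraries. It stood at 1.02, 1.37 and 1.43 FPKM in KO-labelled replicates 1 to 3, and at 0.0721, 0.111 and 0.0519 FPKM in WT replicates 1 to 3. The KO-labelled libraries held 70, 70 and 71 fragments and the WT libraries 4, 6 and 3, so the groups did not overlap and the WT values were close to the floor. The mean was 1.27 ± 0.220 FPKM in KO-labelled libraries and 0.0784 ± 0.0302 FPKM in WT libraries (SD, n = 3 each). From summed fragments the gene was 16.0-fold higher in KO-labelled libraries, with a 95% counting interval of 9.17 to 30.6.

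**Figure D1:**
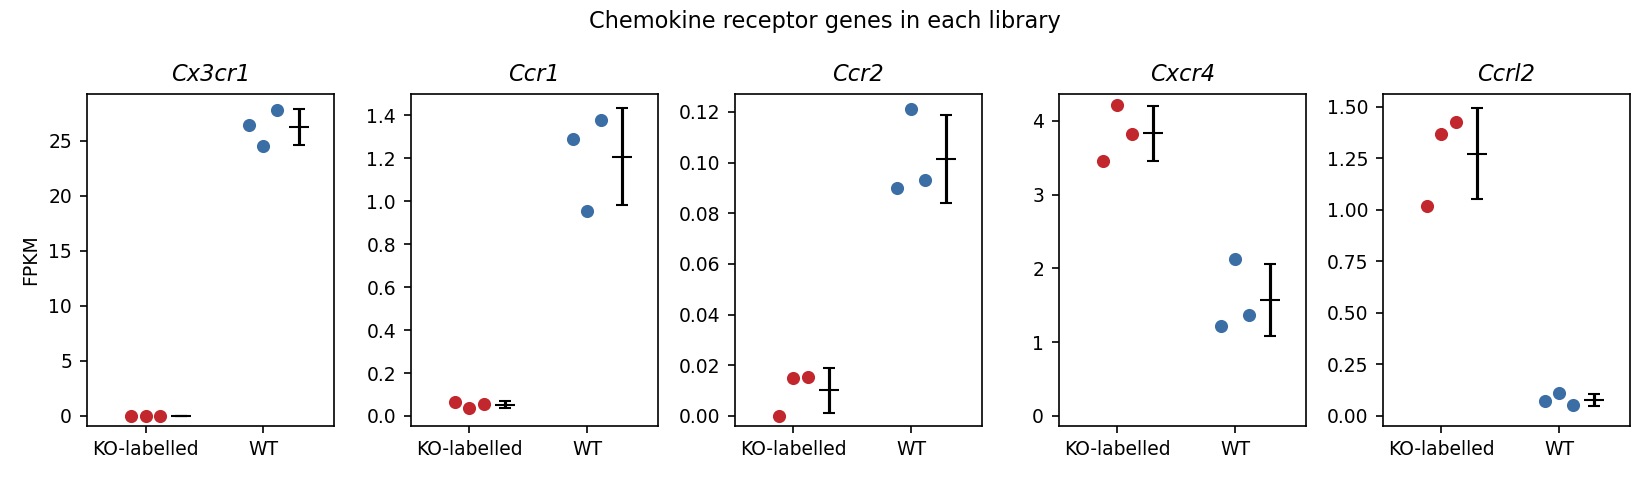
FPKM (vertical axes, each with its own range) of the 5 receptor genes in each library, KO-labelled in red on the left and WT in blue on the right, with the mean and SD of 3 libraries as a bar. Cx3cr1, Ccr1 and Ccr2 are lower and Cxcr4 and Ccrl2 higher in every KO-labelled library than in any WT library.

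All 5 genes had groups that did not overlap, which 46.2% of the 20848 genes with any signal also showed. Since the genes were chosen on this contrast, nothing is read from that count. On the log2(FPKM + 1) scale, the difference of KO-labelled minus WT libraries was -4.77 for Cx3cr1, -1.06 for Ccr1, -0.12 for Ccr2, 0.92 for Cxcr4 and 1.07 for Ccrl2. The median difference of all tested genes was 0.01 on that scale. It compresses the change of weakly expressed genes, which is why Ccrl2 and Cxcr4 look alike on it while their ratios of mean FPKM were 16.2 and 2.44. Testing required an average of 1 FPKM or more across all libraries, which 2 of the 5 genes, Cx3cr1 and Cxcr4, reached; of the tested genes, 67.4% had groups that did not overlap.

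The order of the levels, which FPKM allows because it is per length, differed between the groups. In KO-labelled libraries it ran Cxcr4, Ccrl2, Ccr1, Ccr2 and Cx3cr1, and only the ranges of Ccr2 and Cx3cr1 met, both reaching 0. In WT libraries it ran Cx3cr1, Cxcr4, Ccr1, Ccr2 and Ccrl2, where the range of Cxcr4 overlapped that of Ccr1 and the range of Ccr2 overlapped that of Ccrl2. The gene at the top of the WT order was thus at the bottom of the KO-labelled order.

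Of the 5 genes, 4 lie on chromosome 9. Ccr1 (ENSMUSG00000025804, chr9:123962124-123968692, minus strand) and Ccr2 (ENSMUSG00000049103, chr9:124101950-124113557, plus strand) are 0.140 Mb apart in the main receptor cluster. Cx3cr1 lies 4.06 Mb from Ccr1, and Ccrl2 (ENSMUSG00000043953, chr9:111054486-111057519, minus strand) lies 8.85 Mb from Cx3cr1. Cxcr4 (ENSMUSG00000045382) is at chr1:128588199-128592293 on the minus strand. None of the 5 has a near-identical copy, and the longest match of Ccr1 was to Ccr1l1, at 78.1% identity over 1043 bases. The exons of Ccr1, Ccr2, Cxcr4 and Ccrl2 overlap no other annotated gene.

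The 250 bases before the RefSeq start (GRCm38.p6) are shown for Ccr1, Cxcr4 and Ccrl2, 1 gene lower and 2 genes higher in KO-labelled libraries, to set their promoters side by side. They are chr9:123968693-123968942, chr1:128592300-128592549 and chr9:111057519-111057768, all on the minus strand and written 5′ to 3′ in lower case. Capitals mark the reverse complement of the hypoxia core ACGTG. Of the 3 RefSeq starts of Ccrl2, the one farthest upstream is shown.
Ccr1: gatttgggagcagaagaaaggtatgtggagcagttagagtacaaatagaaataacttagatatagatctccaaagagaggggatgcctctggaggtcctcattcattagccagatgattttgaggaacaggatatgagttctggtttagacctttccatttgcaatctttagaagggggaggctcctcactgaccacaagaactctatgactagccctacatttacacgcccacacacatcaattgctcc
Cxcr4: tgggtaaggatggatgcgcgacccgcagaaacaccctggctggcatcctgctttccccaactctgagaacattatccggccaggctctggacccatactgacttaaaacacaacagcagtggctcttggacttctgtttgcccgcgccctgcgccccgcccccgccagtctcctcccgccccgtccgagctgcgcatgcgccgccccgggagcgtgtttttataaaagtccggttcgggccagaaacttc
Ccrl2: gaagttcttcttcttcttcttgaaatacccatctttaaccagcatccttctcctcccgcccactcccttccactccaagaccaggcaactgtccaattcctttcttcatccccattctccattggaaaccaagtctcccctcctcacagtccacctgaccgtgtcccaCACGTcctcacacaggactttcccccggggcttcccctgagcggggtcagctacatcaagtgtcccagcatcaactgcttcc
Both strands were searched for the STAT6-type motif, the PU.1 core AGGAAGT, the E-box CACGTG and the hypoxia core ACGTG, which is also part of the E-box. STAT6 carries the IL-4 signal and PU.1 is the leading macrophage factor. In the windows shown the only match was the hypoxia core in Ccrl2, at -82 from the start, and the windows of Cx3cr1 and Ccr2, which lie largely in annotated exons and are not printed, held none of the 4. Of 32851 mouse promoter windows of this length, 5.85% held the STAT6-type motif, 7.69% the PU.1 core, 6.02% the E-box and 16.6% the hypoxia core. A match describes letters and not binding.

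The whole receptor family was set beside the 5 genes. Of its 25 genes, 6 reached a mean of 1 FPKM in a group, 10 were detected below that level and 9 were listed at 0 in all 6 libraries. The 6 are Cx3cr1, Cxcr4, Ccr1, Ccrl2, Ccr10 and Cxcr3. The 9 listed at 0 are Ccr3, Ccr6, Ccr7, Ccr8, Ccr1l1, Cxcr1, Cxcr6 and the atypical receptors Ackr1 and Ackr3. Ackr1 shares 25.7% of its exonic bases with Cadm3 on the same strand, while the other 8 share none with another gene. A listed 0 is not always an absent transcript in these tables: Hgs, an endosomal sorting gene of most cells, picked after its value was seen, was at 0 in all 6 libraries, and 97.2% of its exonic bases are shared with another annotated entry.

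Among the 20 receptor genes other than the 5, 2 reached the limit for testing and 1 passed, against 60.8% of all 10843 tested genes. Cxcr3, a receptor of interferon-induced chemokines best known on T cells, fell in KO-labelled libraries. Its level was 0.788, 1.09 and 1.09 FPKM in KO-labelled replicates 1 to 3, and 3.87, 4.23 and 2.52 FPKM in WT replicates 1 to 3. The groups did not overlap, and the log2 difference was -1.17 ± 0.16 (SE) with a limma adjusted p of 7.4e-04. Its KO-labelled mean of 0.987 FPKM lay just under 1 FPKM, so it was tested only through its WT level and could pass only as lower. Ccr10, a receptor of skin and mucosal chemokines, averaged 3.41 ± 1.31 FPKM in KO-labelled libraries and 2.00 ± 0.401 FPKM in WT libraries (SD, n = 3 each). Its groups overlapped, since KO-labelled replicate 3, at 2.15 FPKM, lay below WT replicates 1 and 3, at 2.22 and 2.24 FPKM. The limma adjusted p of Ccr10 was 0.0786 with a log2 difference of 0.52, and without KO-labelled replicate 3 it was 0.0108 with a log2 difference of 0.74.

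Cxcr2, the neutrophil receptor of Cxcl1 and related chemokines, was too low for testing and was singled out after its values were seen. It had 52, 42 and 32 fragments in KO-labelled libraries and 0 in each WT library. It averaged 0.632 FPKM in KO-labelled libraries and was at least 13.8-fold higher there against the floor of 3 fragments per library. The 7 neutrophil markers summed to 0.710 to 1.26 FPKM in KO-labelled libraries and 0.0675 to 0.141 FPKM in WT libraries, with S100a9 and Ly6g listed at 0 in all 6 libraries, and their part in the Cxcr2 signal was not tested. Among other low receptors, Cxcr5 had 116 fragments over the KO-labelled libraries and 150 over the WT libraries, and Ccr4 had 17 over the KO-labelled and 2 over the WT libraries. Xcr1, Gpr182 and Ackr4 had 8, 7 and 5 fragments over the KO-labelled libraries and 17, 27 and 12 over the WT libraries. Ackr2 and Ccr9 had 1 fragment each, in KO-labelled replicate 1.

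**Figure D2:**
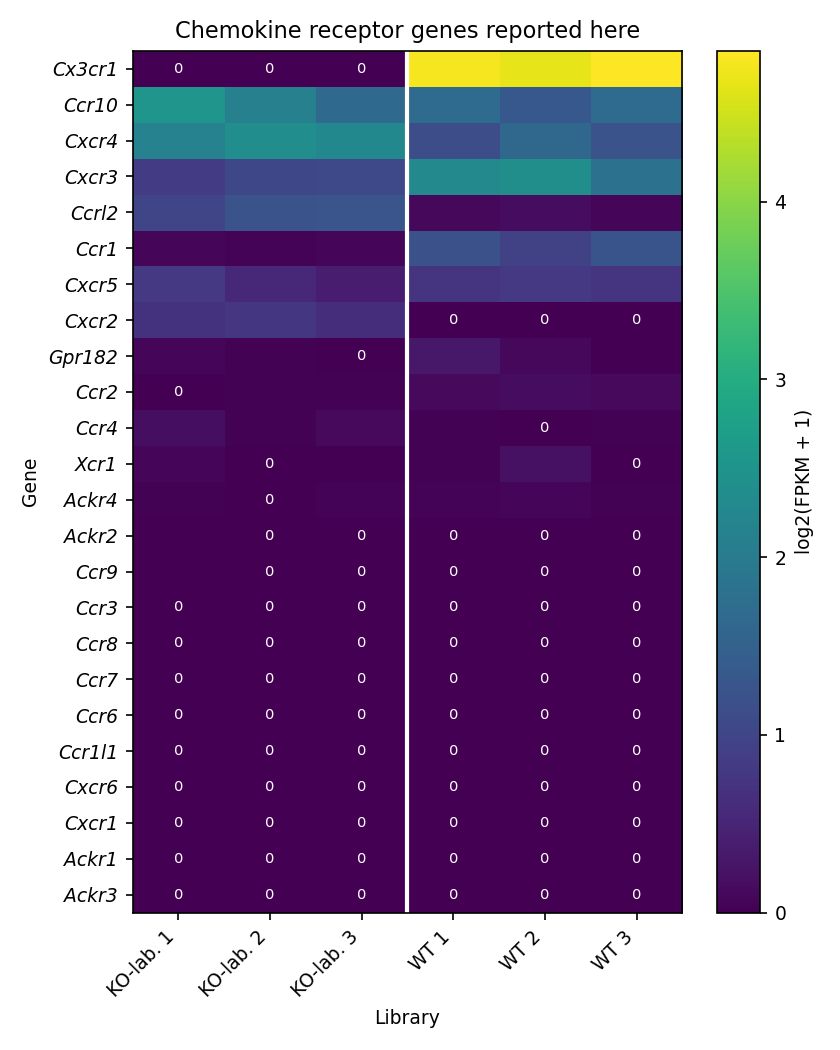
log2(FPKM + 1) (colour scale) of chemokine receptor genes (rows, ordered by level) in the 3 KO-labelled libraries on the left and the 3 WT libraries on the right, with 0 printed where a gene is listed at 0. Cx3cr1 is the brightest row in WT libraries and 0 in KO-labelled ones, Cxcr2 has signal in all 3 KO-labelled libraries and is 0 in WT ones, and 9 genes are 0 throughout.

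The summed level of the 25 genes was 11.9, 11.4 and 9.68 FPKM in KO-labelled replicates 1 to 3, and 36.2, 34.7 and 36.2 FPKM in WT replicates 1 to 3. Cx3cr1 alone made up 73.0, 70.8 and 76.9% of the sum in the WT libraries and none of it in the KO-labelled libraries. Cxcr4 made up 29.0, 37.0 and 39.4% in the KO-labelled libraries, against 3.36, 6.15 and 3.78% in the WT libraries. The first place in KO-labelled libraries was taken by Ccr10 in replicate 1 and by Cxcr4 in replicates 2 and 3. The 5 genes together gave 38.1 to 54.9% of the sum in KO-labelled libraries and 80.4 to 84.9% in WT libraries.

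**Figure D3:**
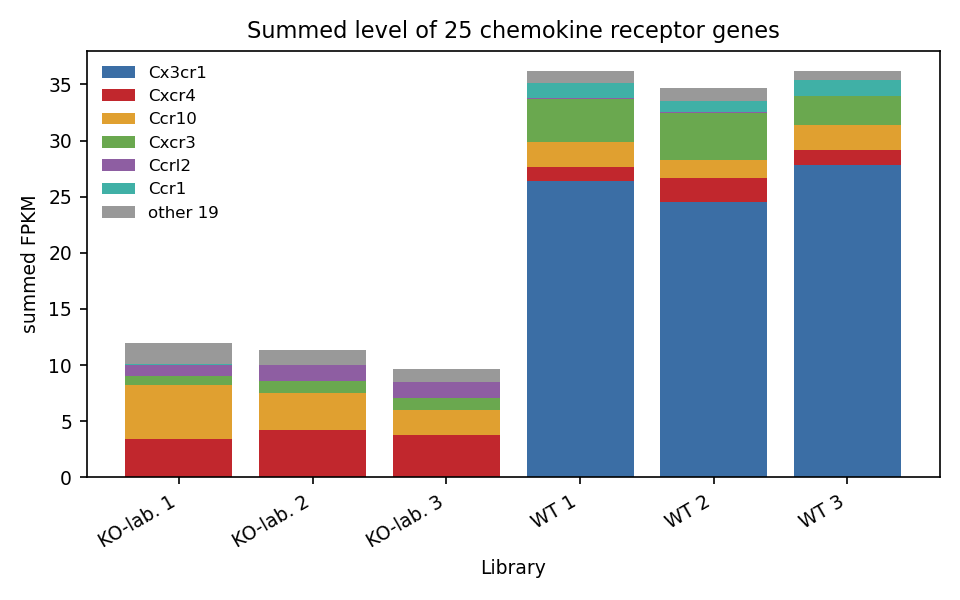
Summed FPKM (vertical axis, from 0) of the 25 chemokine receptor genes in each library, KO-labelled on the left and WT on the right, with colours for the 6 genes that reached 1 FPKM in a group and grey for the other 19. The WT bars stand at 34.7 to 36.2 FPKM and are mostly Cx3cr1, while the KO-labelled bars stand at 9.68 to 11.9 FPKM without it.

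The ligands of the 5 receptors were well detected, apart from fractalkine, chemerin and Cxcl12. Of 12 ligand genes, 9 were tested and all 9 passed, 6 higher and 3 lower in KO-labelled libraries, with a median log2 difference of 1.49. The 6 include Ccl8, which is listed for its human counterpart and in the mouse acts on Ccr8, not 1 of the 5 receptors. Over all tested genes, 30.6% passed as higher and 30.2% as lower. The list was assembled with earlier results of these data known, so its count is not independent evidence of a direction. Ccl6, Ccl8 and Ccl12 averaged under 1 FPKM in WT libraries, so they were tested only through their KO-labelled level.

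The ligands of Ccr2 were higher in KO-labelled libraries. Ccl12, a mouse chemokine that acts on Ccr2, was at 20.3, 16.6 and 11.9 FPKM in KO-labelled replicates 1 to 3 and listed at 0 in all WT libraries, at least 62.4-fold higher against the floor (limma adjusted p = 1.9e-06). Ccl7 averaged 46.8 ± 4.19 FPKM in KO-labelled libraries and 4.53 ± 0.767 FPKM in WT libraries (SD, n = 3 each), a log2 difference of 3.12 ± 0.11 (SE; limma adjusted p = 9.0e-07). Ccl2 averaged 42.2 ± 1.25 FPKM in KO-labelled libraries and 16.4 ± 1.84 FPKM in WT libraries, 2.57-fold higher (limma adjusted p = 1.0e-05). Ccl8, whose human counterpart acts on CCR2 while the mouse protein acts on Ccr8, averaged 6.78 ± 0.400 FPKM in KO-labelled libraries and was listed at 0 in all WT libraries, at least 24.8-fold higher (limma adjusted p = 2.9e-07). Ccr2 was itself at 4 fragments in KO-labelled libraries and 44 in WT libraries.

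The ligands of Ccr1 went both ways. Ccl5 rose, with 32.0 ± 2.18 FPKM in KO-labelled libraries and 3.48 ± 0.681 FPKM in WT libraries (SD, n = 3 each). Ccl6, a mouse chemokine, also rose, with 2.11 ± 1.04 FPKM in KO-labelled libraries and 0.0699 ± 0.0325 FPKM in WT libraries. Ccl3 fell, with 114 ± 5.85 FPKM in KO-labelled libraries and 286 ± 9.02 FPKM in WT libraries, and so did Ccl9, with 36.4 ± 5.11 FPKM in KO-labelled libraries and 74.4 ± 1.55 FPKM in WT libraries. These 4 had limma adjusted p-values of 1.6e-06, 0.00113, 1.1e-06 and 8.1e-05.

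For the remaining receptors the cells made little ligand, apart from Mif. Cx3cl1, fractalkine itself, had 0, 1 and 2 fragments in KO-labelled libraries and 0, 3 and 0 in WT libraries. Cxcl12, the ligand of Cxcr4, was listed at 0 in all 6 libraries. Rarres2, which encodes chemerin, had 0, 2 and 0 fragments in KO-labelled libraries and 0, 0 and 4 in WT libraries. Mif, a cytokine that also binds Cxcr4, averaged 852 ± 54.9 FPKM in KO-labelled libraries and 1296 ± 30.3 FPKM in WT libraries (limma adjusted p = 8.1e-05), but 4 near-identical copies make its value uncertain.

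**Figure D4:**
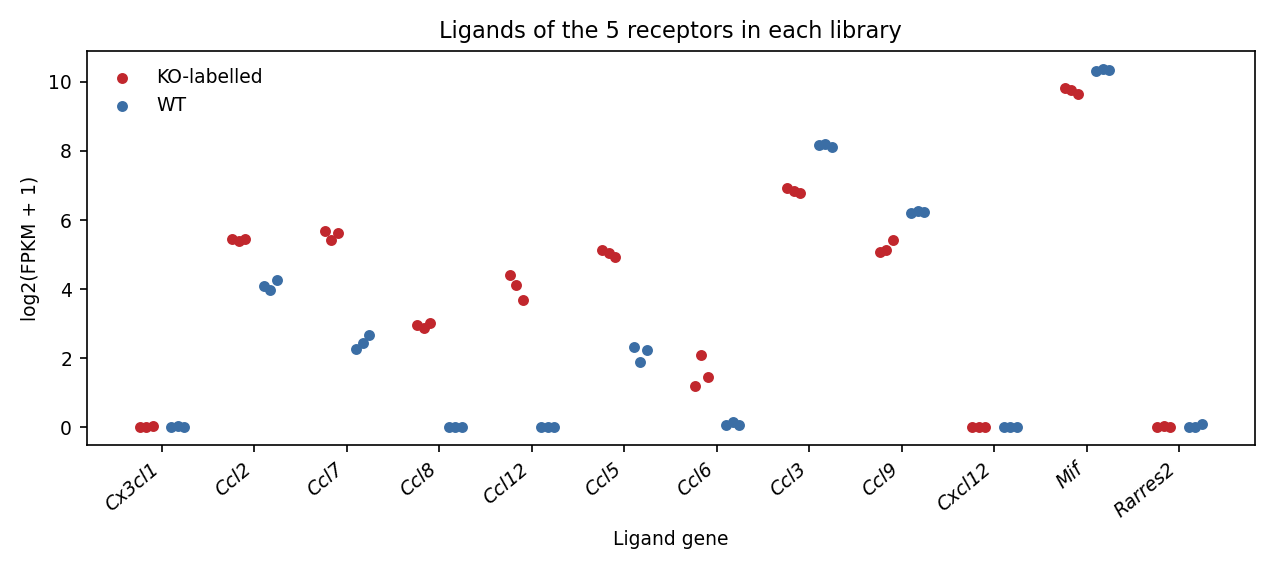
log2(FPKM + 1) (vertical axis) of the 12 ligand genes in each library, with KO-labelled libraries in red to the left of WT libraries in blue. Ccl2, Ccl5, Ccl6, Ccl7, Ccl8 and Ccl12 are higher in every KO-labelled library, Ccl3, Ccl9 and Mif are lower, and Cx3cl1, Cxcl12 and Rarres2 lie at or near 0 in both groups.

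Among the tested receptors for other chemoattractants, most were higher in KO-labelled libraries. Of 25 such genes 12 were tested: 9 rose, 1 fell and the other 2 missed the threshold. Of those that rose, Fpr1, C5ar2 and Ltb4r1 averaged 0, 0.283 and 0.462 FPKM in WT libraries. They were tested only through their KO-labelled level. The list was chosen with earlier results of these data known, so its count is not independent evidence of a direction. Of all tested genes, 60.8% passed, 30.6% as higher and 30.2% as lower. The median log2 difference of these receptors was 1.41. C3ar1, the receptor of complement fragment C3a, averaged 82.2 ± 6.29 FPKM in KO-labelled libraries and 6.34 ± 0.312 FPKM in WT libraries (SD, n = 3 each), with a log2 difference of 3.50 ± 0.07 (SE; limma adjusted p = 4.8e-08). C5ar1, the receptor of C5a, averaged 31.5 ± 2.01 FPKM in KO-labelled libraries and 2.99 ± 0.278 FPKM in WT libraries, with a log2 difference of 3.03 (limma adjusted p = 1.5e-07). The gene that passed as lower was Gpr183, a receptor of oxysterols, at 9.83 ± 0.274 FPKM in KO-labelled libraries and 11.1 ± 0.496 FPKM in WT libraries (SD, n = 3 each; limma adjusted p = 0.0348). That call was lost without KO-labelled replicate 1 or 2 or WT replicate 2 or 3, at limma adjusted p-values of 0.0781, 0.102, 0.110 and 0.0798.

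Most genes of the G protein machinery behind the receptors were expressed, while Gnai1, an inhibitory alpha subunit, was listed at 0 in all 6 libraries. Of 26 genes 23 were tested: 13 rose, 6 fell and 4 missed the threshold. That is 82.6% passing, against 60.8% of all tested genes. Their median log2 difference was 0.19. This list, too, was chosen with earlier results of these data known, so its count is not independent evidence. Gng12, a G protein gamma subunit, averaged 26.3 ± 2.82 FPKM in KO-labelled libraries and 11.7 ± 0.382 FPKM in WT libraries (SD, n = 3 each; limma adjusted p = 2.4e-05). Rac2, the blood cell GTPase that drives migration, averaged 87.9 ± 1.62 FPKM in KO-labelled libraries and 185 ± 3.21 FPKM in WT libraries (limma adjusted p = 7.3e-07).

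Genes that switch receptors off or sort them after uptake passed about as often as all tested genes, at 63.2% against 60.8%. Of 23 genes 19 were tested: 7 rose, 5 fell and 7 missed the threshold, around a median log2 difference of 0.08. Without WT replicate 3 the number that passed was 7 in place of 12, and Rgs1 then fell under the limit for testing. Grk3, a kinase that phosphorylates activated receptors, averaged 6.18 ± 0.326 FPKM in KO-labelled libraries and had 4 fragments in all WT libraries together (log2 difference 2.83; limma adjusted p = 3.5e-07). Rgs1, which shortens G protein signals, averaged 0.418 ± 0.0203 FPKM in KO-labelled libraries and 2.03 ± 0.476 FPKM in WT libraries (SD, n = 3 each; log2 difference -1.08; limma adjusted p = 5.1e-04). Grk3 was tested only through its KO-labelled level and could pass only as higher. Rgs1 was tested only through its WT level and could pass only as lower.

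Genes known from the cells that Ccr2 and Cx3cr1 mark were mostly too low for testing. Of 12 monocyte genes 4 were tested, of which Chil3, Hp and Sirpb1c rose and S100a4 fell. Against these few genes stand 60.8% of all tested genes, 30.6% higher and 30.2% lower. Chil3, Hp and Sirpb1c were at or near 0 in WT libraries. They were tested only through their KO-labelled level and could pass only as higher. Without KO-labelled replicate 2 the number that passed was 2, since Hp and Sirpb1c then fell under the limit for testing. Chil3, a chitinase-like protein induced by IL-4, averaged 15.1 ± 1.18 FPKM in KO-labelled libraries and was listed at 0 in all WT libraries (limma adjusted p = 5.4e-08), and Hp, haptoglobin, averaged 2.52 ± 0.330 FPKM in KO-labelled libraries and was likewise at 0 in all WT libraries (limma adjusted p = 1.3e-05). Ly6c2, Ly6c1 and Plac8 were listed at 0 in all 6 libraries. Of 14 microglia-type genes 6 were tested, of which 4 fell, Trem2, Csf1r and Cst3 among them, and 2 rose, against the same 60.8% of all tested genes. Both the monocyte and the microglia-type list were chosen with earlier results of these data known, so their counts are not independent evidence. Mertk, a receptor for the uptake of dying cells, averaged 4.24 ± 0.154 FPKM in KO-labelled libraries and had 2 fragments in all WT libraries together (limma adjusted p = 1.0e-06). Mertk, too, was tested only through its KO-labelled level and could pass only as higher. Selplg, the ligand of P-selectin, averaged 12.8 ± 1.08 FPKM in KO-labelled libraries and 4.22 ± 0.131 FPKM in WT libraries (limma adjusted p = 4.3e-06).

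Profiles over the 6 libraries nearest to that of Cx3cr1, by Euclidean distance of log2(FPKM + 1), were those of Ranbp3l, Serinc2 and Rhox2h, at distances of 0.220, 0.391 and 0.472. Ranbp3l was listed at 0 in all KO-labelled libraries and averaged 24.6 ± 0.763 FPKM in WT libraries (SD, n = 3), and Rhox2h was likewise at 0 in KO-labelled libraries and at 21.7 ± 0.643 FPKM in WT libraries. These genes lie on chromosomes 15, 4 and X, away from Cx3cr1. The profiles nearest to that of Cxcr4 were those of Lrrc8c, Trim65 and Ppp2r3a, at distances of 0.301, 0.333 and 0.349. The remaining 3 receptors were too low for such a comparison.

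The neighbours of Cx3cr1 that reached 1 FPKM were present in both groups. Of 15 protein-coding genes within 500 kb, 6 reached 1 FPKM and were tested. Below that level, Scn11a averaged 0.00587 FPKM in KO-labelled libraries and 0.862 FPKM in WT libraries. Ttc21a went the other way, at 0.730 FPKM in KO-labelled libraries and 0.0349 FPKM in WT libraries, and neither was tested. Gorasp1, with 10.04 ± 0.653 FPKM in KO-labelled libraries and 6.27 ± 0.608 FPKM in WT libraries, and Wdr48, with 8.93 ± 0.278 FPKM in KO-labelled libraries and 6.05 ± 0.449 FPKM in WT libraries, rose (SD, n = 3 each; limma adjusted p = 5.8e-04 and 5.5e-04). Slc25a38, with 11.4 ± 1.63 FPKM in KO-labelled libraries and 14.5 ± 1.38 FPKM in WT libraries, passed as lower (limma adjusted p = 0.0408). That call was lost without KO-labelled replicate 1 or 2 or WT replicate 1 or 2, at limma adjusted p-values of 0.0738, 0.103, 0.0818 and 0.126. Eif1b, Rpsa and Csrnp1 did not pass. Around all 5 receptors, 59 distinct genes lay within 500 kb, 25 were tested and 10 rose and 7 fell, which is 68.0% against 60.8% of all tested genes. Their median log2 difference was 0.10. Of those that passed, Lztfl1 and Zranb3 averaged under 1 FPKM in WT libraries, and Nradd and Prss50 in KO-labelled libraries. Each of these was tested only through its level in the other group and could pass in that direction only. Both ends of the range lay near Ccrl2: Nradd averaged 0.261 ± 0.209 FPKM in KO-labelled libraries and 3.69 ± 0.769 FPKM in WT libraries, and Als2cl averaged 5.87 ± 0.142 FPKM in KO-labelled libraries and 1.43 ± 0.0942 FPKM in WT libraries (SD, n = 3 each).

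**Figure D5:**
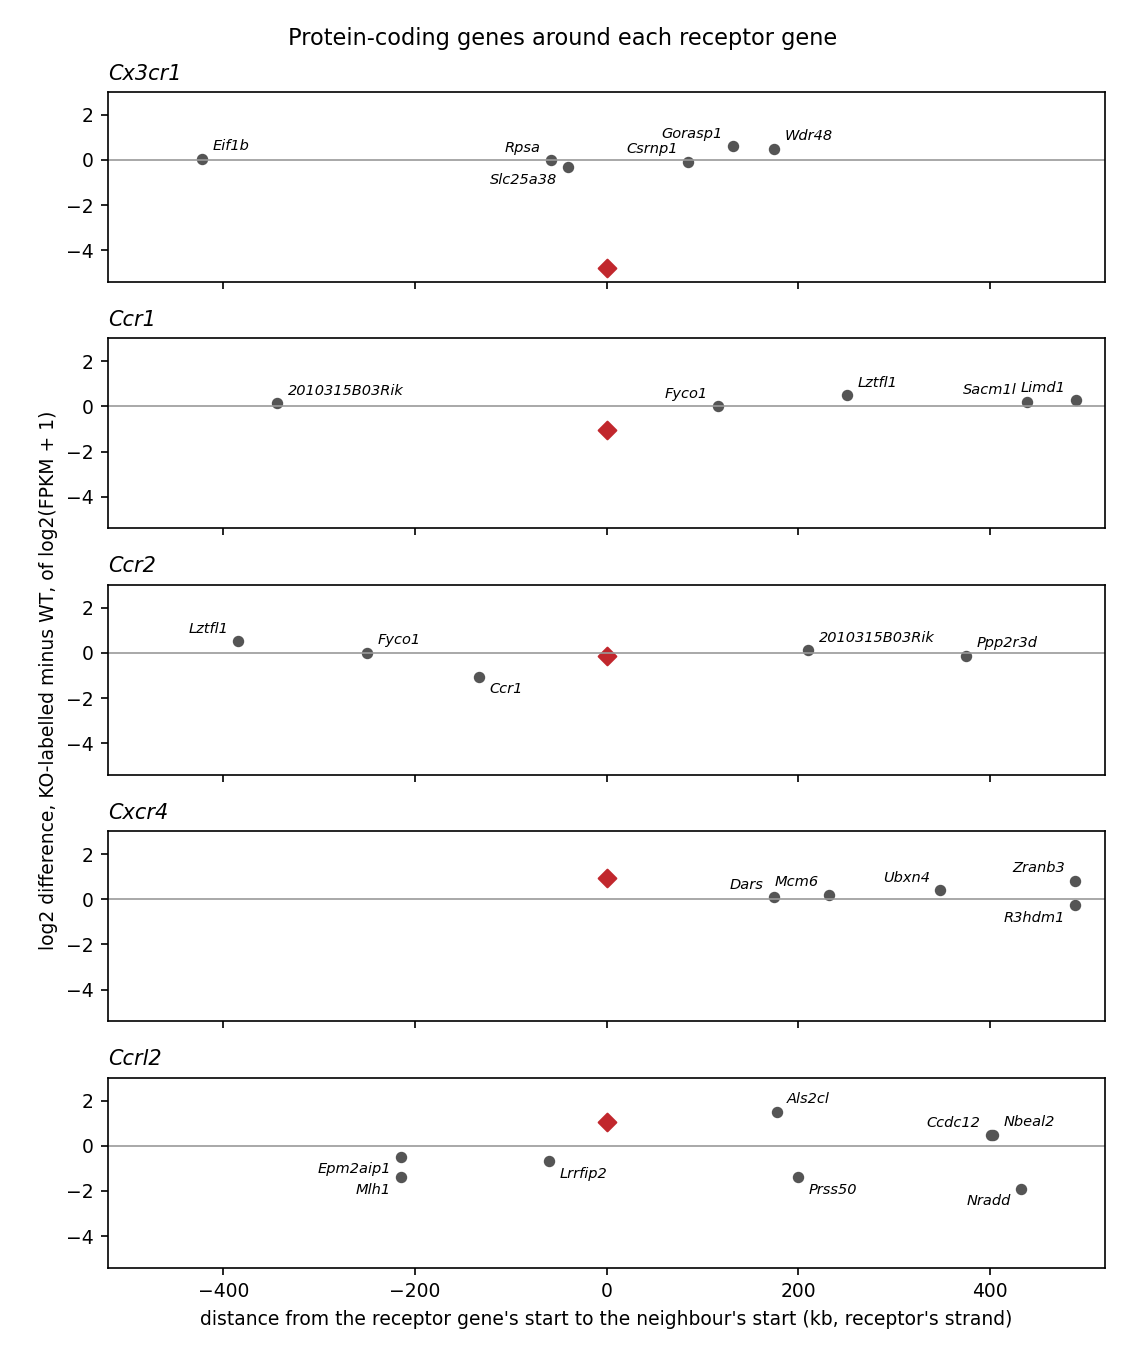
log2 difference, KO-labelled minus WT, of log2(FPKM + 1) (vertical axis) for protein-coding genes that reached 1 FPKM, against the distance of their start from that of each receptor gene (horizontal axis, kb on the receptor's strand), with the receptor as a red diamond. Cx3cr1 stands at -4.77 while its 6 neighbours that reached 1 FPKM lie between -0.32 and 0.60.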

How the data were processed

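The authors deposited FPKM per Ensembl gene, 1 table per library. HISAT2 2.0.5, featureCounts 1.5.0-p3 and mm10 are named in the submitters' processing notes; the annotation release, strand setting and treatment of multi-mapping reads were not given in the sources used here. Symbols came from GENCODE M21 (54495 of 54532 genes; 37 had none). Fragments were recovered from FPKM and exon length for 54213 genes: about 98.0% of values up to 200 fragments were whole within 0.1, against 20% by chance. All 6 tables were distinct.

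The 10843 genes averaging 1 FPKM or more were tested on log2(FPKM + 1) with limma 3.58.1 in R 4.3.3, KO minus WT, mean-variance trend, Benjamini-Hochberg adjustment over all of them, threshold 0.05. A gene under 1 FPKM in 1 group was tested only through its level in the other group. Folds are ratios of mean FPKM, or bounds against 3 fragments per library. Near-identical copies (at least 95% identity over 80% of the shorter transcript and 150 bases) were searched with BLAST+ 2.17.0. The limma step was tested on simulated data.

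The receptors and the 8 gene lists were chosen with earlier results of these data known. Named were the 5 receptors, Tnfsf9, other receptors and ligands that reached 1 FPKM in a group, the 2 largest passing differences of each other list, the 3 nearest profiles of a receptor and neighbours within 500 kb. Some genes of the lists are counted but not reported here by name. Alternatives were another pseudocount, other filters, TPM, quantile normalization, voom on recovered fragments, a replicate block and leaving out each library.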

Additional observations from a re-analysis of the deposited data

How the results depend on the processing

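None of the 5 receptor genes changed direction under the 13 alternatives, and the sizes moved with the scale. Under a pseudocount of 0.1, TPM scaling and voom on recovered fragments, in that order, the log2 difference was -8.04, -6.42 and -12.31 for Cx3cr1, -3.09, -2.04 and -4.33 for Ccr1, -0.87, -0.36 and -3.37 for Ccr2, 1.27, 1.25 and 1.31 for Cxcr4, and 2.94, 2.10 and 3.91 for Ccrl2; quantile normalization gave -0.15 for Ccr2. Without 1 library the log2 difference ran from -4.81 to -4.73 for Cx3cr1, -1.15 to -1.01 for Ccr1, -0.13 to -0.11 for Ccr2, 0.82 to 1.07 for Cxcr4 and 1.02 to 1.15 for Ccrl2. The number of conventional receptors that passed, 1, was 3 without a filter, 0 at a mean of at least 5 FPKM (where fewer genes are tested) and 2 with TPM, where Ccr10 passed (limma adjusted p = 0.0490), and ran from 1 to 2 without 1 library. At that stricter filter 6 chemoattractant receptors, 7 desensitisation genes, 2 monocyte genes and 9 neighbours passed. Without 1 library, 7 to 10, 7 to 10, 2 to 4 and 15 to 17 of these passed. The limit of 1 FPKM was applied anew to the remaining libraries, so the tested genes also changed. Without any 1 of the KO-labelled libraries, 10 chemoattractant receptors were tested in place of 12. Of 57 other named genes, those whose direction turned were neighbours near 0 that had not passed: with TPM Csrnp1 was at 0.0009, Fyco1 at 0.0771 and Rpsa at 0.0791, with voom Fyco1 was at 0.0228, with quantile normalization Rpsa was at 0.2929 (limma adjusted p = 0.00316), and without 1 library Fyco1 ran from -0.0931 to 0.0523 and Rpsa from -0.0670 to 0.0140. Slc25a38 also missed the threshold without a filter, with TPM and with the replicate block (limma adjusted p = 0.0848, 0.114 and 0.0839), and Gpr183 with TPM, voom and the replicate block (limma adjusted p = 0.268, 0.0896 and 0.0802). TPM moved the median of all tested genes to 0.10, with 3969 genes higher and 2642 lower, against 3321 and 3273. Same-numbered libraries deviated with correlations of -0.034, 0.047 and -0.032, within the range of -0.060 to 0.075 of differently numbered libraries. These few values cannot exclude a batch shared by number. With the number as a replicate block, 6194 genes passed in place of 6594, as did 10 desensitisation genes in place of 12. Depth limits Ccr2 in both groups, Ccr1 in KO-labelled and Ccrl2 in WT libraries, which rest on 6 or fewer fragments per library apart from Ccr2 in WT.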
